A study of Homo sapiens with 2 samples.

Results

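The 10 genes described here encode subunits of Polycomb repressive complex 2 (PRC2): EED, EZH2, EZH1, SUZ12, RBBP4, RBBP7, JARID2, MTF2, PHF19 and AEBP2. They were taken by symbol from the 33694 genes of a single-cell count matrix, and all 10 were present once. The cells were derivatives of C1, an epithelial line from HMLER, which is a human mammary epithelial line that was immortalised and transformed with RAS. C1-sgControl, called the control line below, carried a control guide. C1-sgEED had EED knocked out, and C1-sgKMT2D had KMT2D knocked out, which encodes a histone H3 methyltransferase of enhancers. All were grown in the same mammary epithelial medium with insulin, EGF and hydrocortisone, and no other treatment, time or age is given. The stated design is that C1 is stably epithelial and that either knockout produced more mesenchymal cells. Each line was stained with its own hashtag antibody and all were read in 1 pooled 10x gene expression library, with the hashtags in a library of their own. Each line is therefore 1 sample, so no difference below has a replicate check and no test was made. The cells are titled as mixed clones, and neither their number nor the position of the edits is stated.

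PRC2 places methyl groups on lysine 27 of histone H3, the mark of Polycomb-repressed chromatin. EZH2 or its paralog EZH1 is the catalytic subunit, active only when bound to EED, which reads the mark, and to SUZ12, the scaffold. RBBP4 and RBBP7 are histone-binding proteins that also serve in other chromatin complexes. The accessory subunits define 2 forms of the complex: MTF2 or PHF19 in one, JARID2 and AEBP2 in the other. EZH2 is known as an E2F target that is high in dividing cells, whereas EZH1 is known from resting and differentiated cells.

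Levels are CPM, the UMIs of a gene per 1000000 gene UMIs of the cells summed. All intervals are 95% intervals and cover counting error only. A ratio of at least 1.5-fold was counted as a difference, among 9420 genes with a mean of at least 5 CPM over the 3 lines, and all 10 subunits passed that filter. The cells kept, 1720 of the control line, 2338 of C1-sgEED and 2348 of C1-sgKMT2D, held 9927122 to 13957344 UMIs per line. The filter removed 27.2% of control cells, against 6.78% and 5.89% in the knockouts. All 6 basal epithelial markers were over 5 CPM in every line, and of 6 mesenchymal markers 1 was in the control line and 6 were in each knockout. The 8 immune markers summed to at most 20.5 CPM, with 4 to 6 of them at 0. The 5 endothelial markers summed to at most 0.682 CPM, and the 6 neural markers to at most 24.3 CPM.

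Cycling differed between the lines, and many subunits moved with it. Each cell of at least 2000 UMIs was thinned to 2000 UMIs and placed in 1 of 4 cycle bins by its UMIs from 43 G1/S genes and 54 G2/M genes, which hold no PRC2 subunit. The bins were cut at the quartiles of the 3 lines pooled, which are 4, 7 and 16 UMIs, and ties made them unequal in size. The highest bin held 15.0% of the control line, 20.9% of C1-sgKMT2D and 35.2% of C1-sgEED cells, and the lowest bin 53.1%, 29.4% and 21.2%. Subunit ratios between whole lines are therefore given for all cells and, as a rate ratio pooled over the 4 bins (Mantel-Haenszel), within cycle bins. Ratios between parts of different lines were not matched on the bins.

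Over whole lines, EZH2 and PHF19 were the subunits at least 1.5-fold higher in C1-sgEED than in the control line, beside 11.6% of all genes tested. JARID2 was the 1 subunit at least 1.5-fold lower, beside 8.35% of genes. PHF19 alone was higher in C1-sgKMT2D than in the control line (8.08% of genes) and no subunit was lower (14.6% of genes). Between the knockouts, none of the 10 was 1.5-fold higher in C1-sgKMT2D (3.33% of genes) or lower (14.1% of genes). The median log2 ratio of the 10 was 0.06 for C1-sgEED over control, 0.22 for C1-sgKMT2D over control and 0.18 for C1-sgKMT2D over C1-sgEED. The medians of all genes tested were 0.08, -0.03 and -0.11, and both knockout comparisons share the same control cells.

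**Figure D1:**
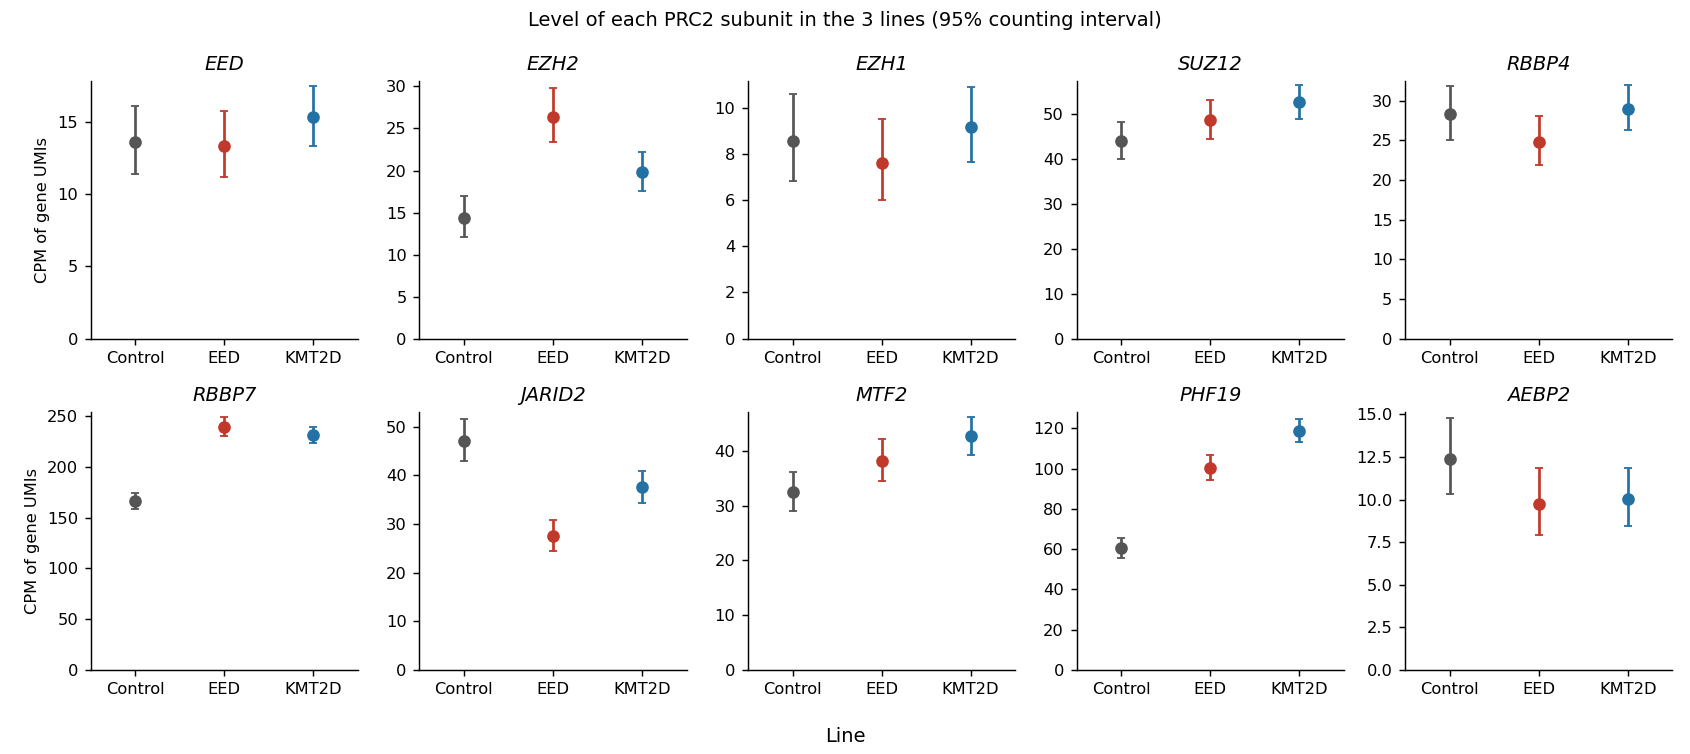
CPM of gene UMIs (y axis, from 0) of each PRC2 subunit in the control line (C1-sgControl) and both knockouts (x axis), with bars for the 95% counting interval. EED is level across the lines at 13.4 to 15.3 CPM, EZH2 is highest in C1-sgEED at 26.4 CPM, PHF19 is higher in both knockouts and JARID2 is lowest in C1-sgEED at 27.5 CPM.

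EED (ENSG00000074266; GRCh38 chromosome 11, 86244544 to 86278813, plus strand) is the subunit targeted in C1-sgEED. Over whole lines it was read at 13.6 CPM (11.4 to 16.1) in the control line, 15.3 CPM (13.3 to 17.5) in C1-sgKMT2D and 13.4 CPM (11.2 to 15.8) in C1-sgEED. These intervals overlap, and the ratio of C1-sgEED to control was 0.982 (0.769 to 1.26). A 3' UMI count does not show whether an edit disabled the protein, so these levels are no check of the knockout. The same holds for KMT2D, at 4.63 CPM in the control line and 5.02 CPM in C1-sgKMT2D. The whole-line EED value of C1-sgEED is an average over cells of very different EED level.

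The cells were split by their mesenchymal share, the UMIs of 36 mesenchymal genes over those of these and 44 epithelial genes in the thinned cell, neither list holding a PRC2 subunit. The mesenchymal range lies above 0.421, the 99th percentile of the control line, and the rest is called the epithelial range. The mesenchymal range held 17 of 1636 cells in the control line (1.04%), 952 of 2234 in C1-sgKMT2D (42.6%) and 1002 of 2171 in C1-sgEED (46.2%). Since the 17 control cells were too few, the control is shown in its epithelial range.

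In C1-sgEED, EED was at 20.6 CPM in the epithelial range, from 123 UMIs, and at 2.73 CPM in the mesenchymal range, from 11 UMIs. The mesenchymal range was thus 7.55-fold lower (4.08 to 15.5), and the intervals of the levels lie far apart. Within cycle bins the ratio was 0.131 (0.0703 to 0.246), close to the 0.132 (0.0644 to 0.245) over all cells. From the lowest to the highest cycle bin, 0, 2, 5 and 4 EED UMIs came from mesenchymal-range cells and 22, 28, 40 and 33 from epithelial-range cells. The mesenchymal range was the lower in each of the 4 bins.

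The level of EED did not slope with the mesenchymal share but stepped at 1 place. Below the bound, C1-sgEED cells were at 20.6 CPM (share of at most 0.1), 18.3 CPM (0.1 to 0.2) and 23.5 CPM (0.2 to the bound). Above the bound they were at 1.90 CPM (up to 0.6), 2.39 CPM (0.6 to 0.8) and 3.27 CPM (over 0.8), from 1, 4 and 6 UMIs. These 3 levels do not differ beyond their counting intervals, whose highest limit is 10.6 CPM, and the lowest limit below the bound is 13.1 CPM.

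C1-sgKMT2D showed no such step. There EED was at 14.8 CPM in the epithelial range and 16.7 CPM in the mesenchymal range, a ratio of 1.12 (0.839 to 1.5). Along the mesenchymal share its 6 values lay between 14.5 and 17.4 CPM. Mesenchymal-range cells of C1-sgKMT2D held 6.11-fold more EED (3.23 to 12.7) than those of C1-sgEED. KMT2D itself, the gene targeted there, was at 5.34 CPM in the mesenchymal and 4.84 CPM in the epithelial range of C1-sgKMT2D, a ratio of 1.10 (0.648 to 1.85).

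**Figure D2:**
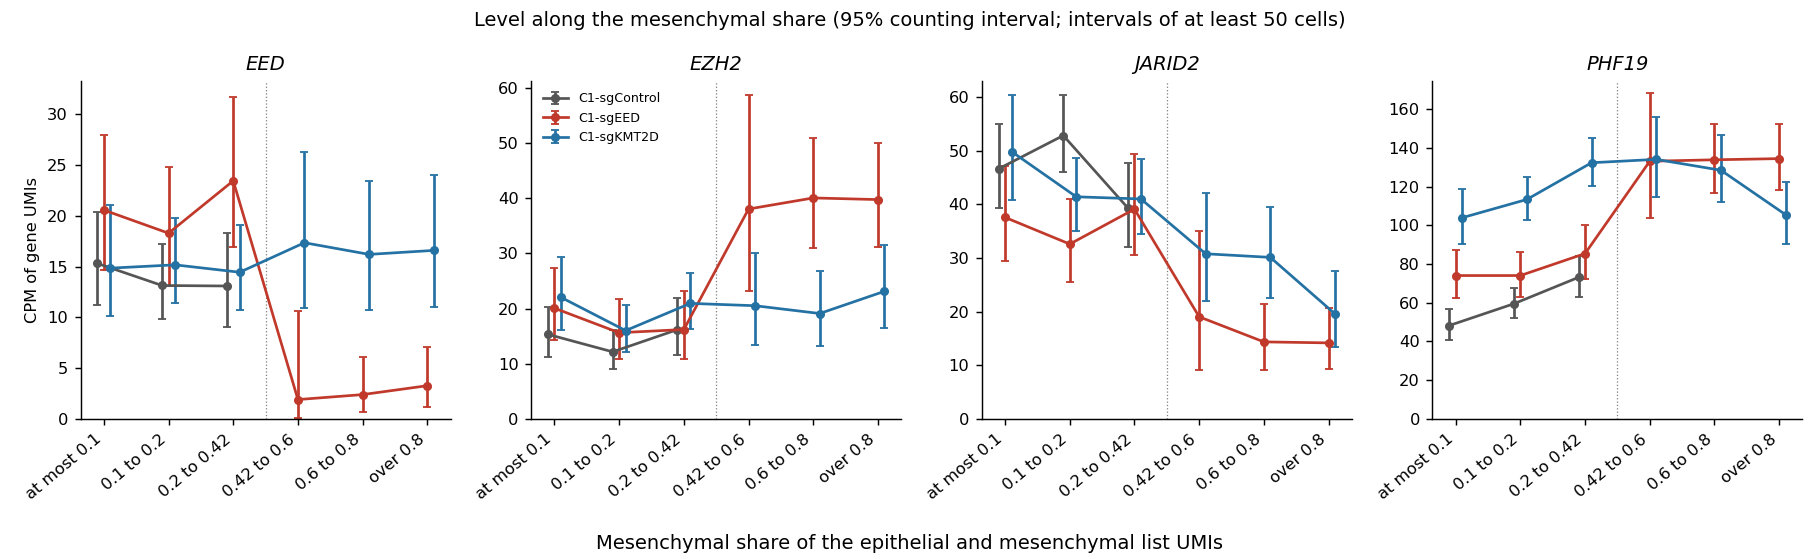
CPM of gene UMIs (y axis, from 0) of EED, EZH2, JARID2 and PHF19 in intervals of the mesenchymal share (x axis) for the 3 lines, with 95% counting intervals; intervals of under 50 cells are left out and the dotted line is the bound of the mesenchymal range. In C1-sgEED, EED steps down at the bound, from 23.5 to 1.90 CPM, and EZH2 steps up, from 16.2 to 38.1 CPM, while both stay level in C1-sgKMT2D.

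Against the epithelial range of the control line, at 13.8 CPM, EED was 5.07-fold lower (2.74 to 10.4) in the mesenchymal range of C1-sgEED. In the epithelial range of C1-sgEED it was 1.49-fold higher (1.16 to 1.92) than in that of the control, just under the 1.5-fold that counts. The ratio of 0.132 was 0.203 with cells of at least 5000 UMIs thinned to 5000 and 0.209 with the bound at 0.8, which moves cells of intermediate share into the lower range.

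The share of cells with an EED UMI gave the same order. At 2000 UMIs per cell, 46 of 1169 epithelial-range cells of C1-sgEED had one (3.93%, exact Clopper-Pearson interval 2.90 to 5.21) and 9 of 1002 mesenchymal-range cells (0.898%, 0.412 to 1.70). Without thinning these were 114 cells (9.75%) and 11 cells (1.10%), at median depths of 4530 and 3548 UMIs. In C1-sgKMT2D the thinned shares were 2.73% and 3.47%. No cell type in the pool is known to lack EED, so no background of free RNA could be set beside the 11 UMIs, and its part in them was not tested.

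The genes next to EED did not share its low level in the mesenchymal range of C1-sgEED. PICALM, the nearest measured gene on its left side, had a ratio of 1.18 (0.878 to 1.58), and C11orf73, the nearest on its right, 1.12 (0.995 to 1.26). TMEM126B, TMEM126A and CREBZF, further to the left, stood at 0.869, 1.14 and 1.01, and PRSS23, further to the right, at 2.79. Over the 20 measured genes nearest to EED, 10 on each side, the median log2 ratio was 0.18, against -2.92 for EED, and the lowest of them was RAB38 at -2.39. A low ratio was not particular to EED among all genes: 183 of the 9420 genes (1.94%) had a ratio as low or lower, and no place of EED among them was tested.

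Of the catalytic subunits, EZH2 passed 1.5-fold over the control in C1-sgEED, and EZH1 did so in neither knockout. EZH2 (ENSG00000106462; chromosome 7, 148807383 to 148884321, minus strand) was at 14.4 CPM (12.1 to 17) in the control line, 19.8 CPM (17.5 to 22.3) in C1-sgKMT2D and 26.4 CPM (23.4 to 29.8) in C1-sgEED. The 3 intervals do not overlap. C1-sgEED was 1.83-fold (1.49 to 2.26) and C1-sgKMT2D 1.37-fold (1.12 to 1.69) above the control. EZH1 (ENSG00000108799; chromosome 17, 42700275 to 42745049, minus strand) was at 8.56, 9.17 and 7.60 CPM in the control line, C1-sgKMT2D and C1-sgEED, with overlapping intervals.

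EZH2 followed the cycle bins in every line. From the lowest to the highest bin it was at 7.60, 11.1, 25.5 and 25.6 CPM in the control line, at 10.7, 22.2, 17.8 and 42.2 CPM in C1-sgEED and at 9.72, 12.4, 19.3 and 37.6 CPM in C1-sgKMT2D. The highest bin was 3.37-fold (2.13 to 5.37), 3.93-fold (2.51 to 6.45) and 3.87-fold (2.65 to 5.79) above the lowest. EZH1 ran the other way, from 9.66 to 6.99 CPM in the control line, from 11.2 to 5.84 CPM in C1-sgEED and from 10.8 to 6.22 CPM in C1-sgKMT2D, and the interval of its ratio reached past 1 in the control line. The UMIs of EZH2 per UMI of EZH1 went from 0.787 to 3.67, from 0.957 to 7.23 and from 0.897 to 6.05 between the lowest and the highest bin.

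Within cycle bins the gap in EZH2 between the lines was smaller. For C1-sgEED over control it was 1.34 (1.08 to 1.66), against 1.84 in the same cells without the bins. For C1-sgKMT2D over control it was 1.15 (0.935 to 1.41), against 1.39, and for C1-sgKMT2D over C1-sgEED 0.868 (0.732 to 1.03), against 0.754. The interval for C1-sgKMT2D over control includes 1. The bins did not point 1 way: in the third bin EZH2 was at 0.700 (0.449 to 1.10) of the control in C1-sgEED and 0.756 (0.503 to 1.15) in C1-sgKMT2D, with intervals that include 1, and in the other bins at 1.41, 1.99 and 1.65 and at 1.28, 1.11 and 1.47. None of the 10 subunits was past 1.5-fold in C1-sgEED over control within the bins, beside 8.35% of genes higher and 7.55% lower. PHF19 was the 1 subunit past it in C1-sgKMT2D over control (6.23% of genes higher, 15.1% lower), and none was in C1-sgKMT2D over C1-sgEED (3.49% and 13.5%).

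**Figure D3:**
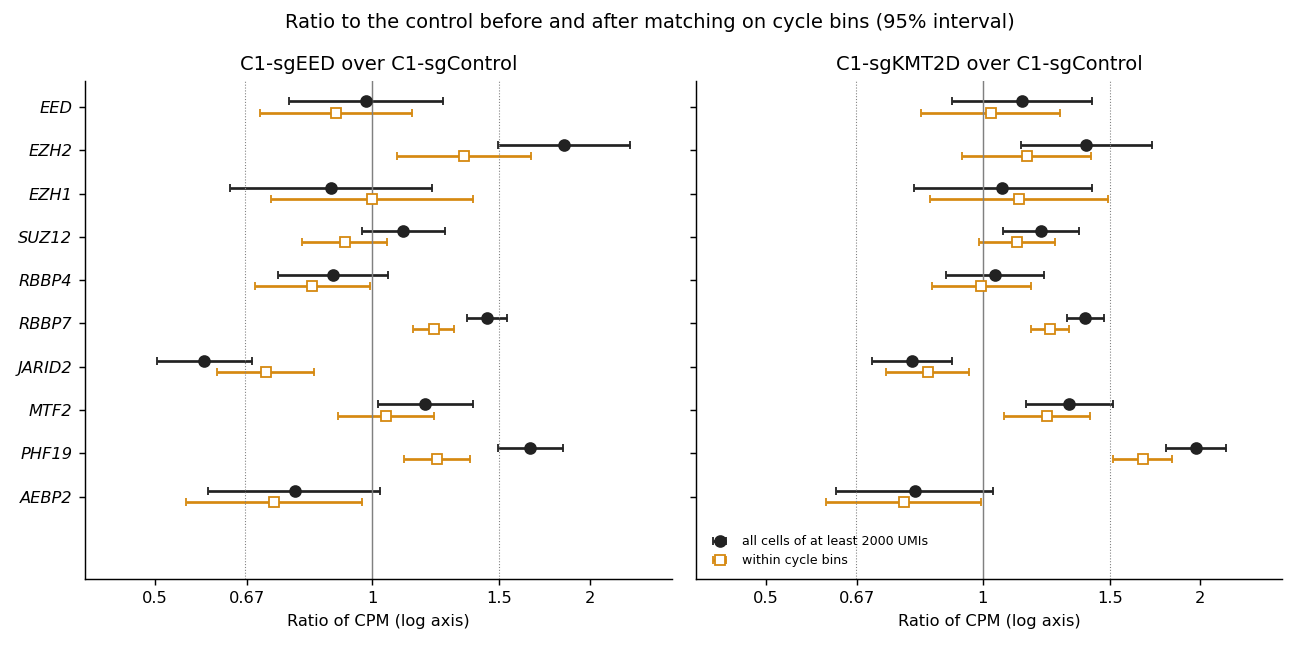
Ratio of CPM to the control line (x axis, log scale) of the 10 PRC2 subunits (y axis) for C1-sgEED and C1-sgKMT2D, in all cells of at least 2000 UMIs (filled circles) and within cycle bins (open squares), with 95% intervals and dotted lines at 1.5-fold. EZH2 in C1-sgEED moves from 1.84 to 1.34 and PHF19 in C1-sgKMT2D stays past 1.5-fold, at 1.66.

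Within C1-sgEED, EZH2 was high where EED was low. It was at 39.7 CPM in the mesenchymal and 17.2 CPM in the epithelial range, a ratio of 2.30 (1.78 to 2.98), and within cycle bins 1.96 (1.5 to 2.55). Over alternative settings of the processing the ratio ran from 1.71, below the interval over all cells, to 2.41. The bins were not alike: from the lowest to the highest the ratio was 2.16 (0.816 to 5.47), 0.954 (0.412 to 2.03), 1.38 (0.734 to 2.59) and 2.52 (1.75 to 3.71), and the interval of the highest bin alone lay above 1. Of the 54 G2/M genes, 27 were at least 1.5-fold higher in the mesenchymal range of C1-sgEED, beside 12.4% of all genes, and 3 in that of C1-sgKMT2D, beside 8.86%, with none lower in either. In the epithelial range EZH2 stood at 1.21 times the control (0.929 to 1.58). Along the mesenchymal share it was at 20.1, 15.6 and 16.2 CPM below the bound and at 38.1, 40.1 and 39.8 CPM above it. In C1-sgKMT2D the ranges did not differ beyond counting error, at 20.9 and 19.2 CPM.

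EZH1 was at 5.95 CPM in the mesenchymal and 8.70 CPM in the epithelial range of C1-sgEED, a ratio of 0.684 whose interval (0.403 to 1.13) includes 1. In C1-sgKMT2D it was at 12.4 and 7.58 CPM, or 1.63-fold higher (1.13 to 2.35) in the mesenchymal range. EZH2 per EZH1 was 6.67 (4.32 to 10.7) in mesenchymal-range and 1.98 (1.41 to 2.82) in epithelial-range cells of C1-sgEED. In C1-sgKMT2D it was 1.69 (1.21 to 2.38) and 2.54 (1.91 to 3.40), so its mesenchymal-range value lay below that of C1-sgEED. These values were not matched on the cycle. From the lowest to the highest bin, EZH2 per EZH1 itself went from 0.957 to 7.23 in C1-sgEED and from 0.897 to 6.05 in C1-sgKMT2D. The part of the cycle in the gap between the knockouts was not tested. EED per EZH2 was 0.0688 in mesenchymal-range C1-sgEED cells and between 0.771 and 1.19 in the epithelial range of the 3 lines.

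**Figure D4:**
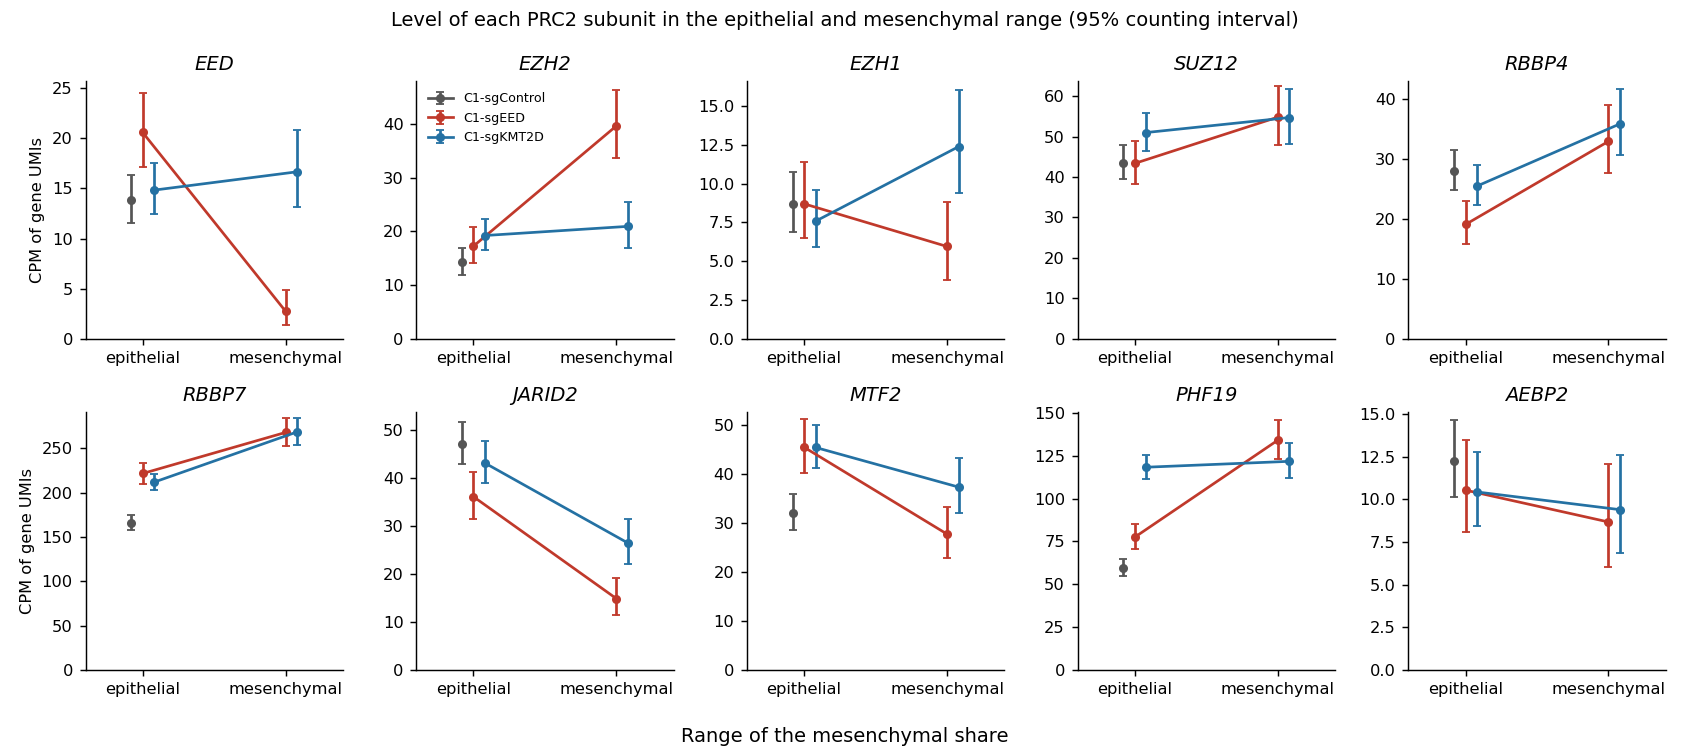
CPM of gene UMIs (y axis, from 0) of each PRC2 subunit in the epithelial and mesenchymal range (x axis) of C1-sgEED and C1-sgKMT2D and in the epithelial range of the control line, with 95% counting intervals. In C1-sgEED, EED goes from 20.6 to 2.73 CPM, EZH2 from 17.2 to 39.7 CPM and JARID2 from 36.2 to 14.9 CPM.

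Counted over the 10 subunits, 3 were at least 1.5-fold higher in the mesenchymal range of C1-sgEED (EZH2, RBBP4 and PHF19; 12.4% of all genes) and 3 lower (EED, JARID2 and MTF2; 17.7% of genes). Within cycle bins 2 were higher (EZH2 and RBBP4; 10.5% of genes) and the 3 lower ones were EED, JARID2 and MTF2 again (18.2% of genes). In C1-sgKMT2D, EZH1 was the 1 higher (8.86% of genes) and JARID2 the 1 lower (12.3% of genes), and so they were within cycle bins (8.9% and 12.3% of genes). The median log2 ratio of the subunits was -0.00 in C1-sgEED, beside -0.02 over all genes, and 0.11 in C1-sgKMT2D, beside -0.04. Mesenchymal-range cells of C1-sgKMT2D over those of C1-sgEED had 3 subunits higher (EED, EZH1 and JARID2; 11.9% of genes) and 1 lower (EZH2; 20.9% of genes).

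Set against the epithelial range of the control, the mesenchymal range of C1-sgEED had 3 subunits higher (EZH2 at 2.79-fold, PHF19 at 2.25-fold and RBBP7 at 1.61-fold; 18% of genes). It had 2 lower (EED and JARID2, the latter 3.18-fold; 18% of genes). The mesenchymal range of C1-sgKMT2D had 2 higher (PHF19 at 2.04-fold and RBBP7 at 1.62-fold; 11.5% of genes) and 1 lower (JARID2, 1.78-fold; 20.5% of genes). PHF19, RBBP7 and JARID2 thus stood on the same side of the control in both, whose comparisons share those control cells. EED and EZH2 passed 1.5-fold in C1-sgEED alone, EZH2 being at 1.47-fold in C1-sgKMT2D. None of these ratios was matched on cycle bins, and the part of the cycle in them was not tested.

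SUZ12 (ENSG00000178691; chromosome 17, 31937018 to 32001045, plus strand), the scaffold, stayed within 1.5-fold across lines and ranges. It was at 43.9 CPM (39.9 to 48.2) in the control line, 48.6 CPM (44.4 to 53.0) in C1-sgEED and, in C1-sgKMT2D, 52.5 CPM (48.8 to 56.5), whose interval lies just above that of the control. The ratio of mesenchymal to epithelial range was 1.26 (1.05 to 1.52) in C1-sgEED and 1.07 in C1-sgKMT2D, where its interval includes 1. The cycle bins moved it more: the highest bin was 2.14-fold (1.67 to 2.73) above the lowest in the control line, 2.00-fold (1.5 to 2.70) in C1-sgEED and 1.35-fold (1.10 to 1.66) in C1-sgKMT2D. In mesenchymal-range C1-sgEED cells there were 0.0498 EED UMIs per SUZ12 UMI, against 0.475 in the epithelial range.

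The histone-binding pair RBBP7 and RBBP4 differed from each other. RBBP7 (ENSG00000102054; chromosome X, 16839283 to 16870414, minus strand) was at 166 CPM (158 to 175) in the control line, 231 CPM (223 to 239) in C1-sgKMT2D and 240 CPM (230 to 250) in C1-sgEED. The control line lay below both knockouts, whose intervals overlap. The ratios to control were 1.39 for C1-sgKMT2D and 1.44 for C1-sgEED, and within cycle bins 1.24 (1.17 to 1.32) and 1.22 (1.14 to 1.30). The bins were not alike: from the lowest to the highest the ratio for C1-sgEED was 1.51, 1.10, 1.17 and 1.14. For C1-sgKMT2D it was 1.43, 1.23 and 1.03 below the highest bin, where the levels were 310 CPM against 245 CPM in the control line. The highest cycle bin of RBBP7 was 2.11-fold, 1.60-fold and 1.86-fold above the lowest in the control line, C1-sgEED and C1-sgKMT2D.

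RBBP4 (ENSG00000162521; chromosome 1, 32651142 to 32686211, plus strand) was at 28.3, 24.9 and 29 CPM in the control line, C1-sgEED and C1-sgKMT2D, with overlapping intervals. It passed 1.5-fold between the ranges of C1-sgEED and not between those of C1-sgKMT2D. In C1-sgEED it was at 33.0 CPM in the mesenchymal and 19.1 CPM in the epithelial range, a ratio of 1.73 (1.34 to 2.24), and in C1-sgKMT2D at 35.9 and 25.5 CPM, a ratio of 1.41 (1.15 to 1.72). In C1-sgEED the epithelial range was below that of the control, with a ratio of 0.680 (0.542 to 0.850). With the bound at 0.8 the ratio of 1.73 was 1.13. RBBP4 has 6 pseudogene copies in GENCODE v29, and EZH2 and SUZ12 have 1 each, to which the authors' counting could have lost reads, so these levels are uncertain as those of single genes.

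The accessory subunits MTF2 and PHF19 are paralogs that carry a Tudor domain and PHD fingers and bring PRC2 to CpG islands. PHF19 (ENSG00000119403; chromosome 9, 120855652 to 120894896, minus strand) was at 60.4 CPM (55.7 to 65.5) in the control line, 101 CPM (94.5 to 107) in C1-sgEED and, in C1-sgKMT2D, 119 CPM (113 to 125). No intervals overlap, and the ratios to control were 1.66 (1.5 to 1.84) for C1-sgEED and 1.97 (1.79 to 2.16) for C1-sgKMT2D. Within cycle bins the first was 1.23 (1.11 to 1.36) and the second 1.66 (1.51 to 1.83), so PHF19 was the subunit with the highest cycle-matched ratio in C1-sgKMT2D.

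PHF19 had the highest fold of the 10 between the highest and lowest cycle bin of the control line, 4.03 (3.29 to 4.95), and a lower fold than EZH2 in both knockouts, at 2.64 and 3.18. It went from 33.7 to 136 CPM in the control line, from 54.1 to 143 CPM in C1-sgEED and from 67.2 to 214 CPM in C1-sgKMT2D. The 2 upper bins were divided by whether the G1/S or the G2/M genes, each against its mean, weighed more in a cell. PHF19 was 2.02-fold (1.60 to 2.57), 1.48-fold (1.28 to 1.72) and 2.20-fold (1.93 to 2.51) higher in the G2/M-leaning than in the G1/S-leaning cells of the control line, C1-sgEED and C1-sgKMT2D. EZH2 gave 0.616 (0.390 to 0.966), 0.855 (0.644 to 1.14) and 1.37 (1.02 to 1.84), with no common direction. RBBP4 was lower in the G2/M-leaning cells of both knockouts, at 0.682 (0.499 to 0.931) and 0.648 (0.491 to 0.853), and at 0.885 in the control line with an interval that includes 1.

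In the epithelial range PHF19 was 1.99-fold (1.79 to 2.20) above the control in C1-sgKMT2D, the 1 subunit past 1.5-fold there (6.89% of genes higher, 14.2% lower), and 1.30-fold (1.15 to 1.47) in C1-sgEED, where none was (8.99% of genes higher, 5.23% lower). It was also the 1 subunit past 1.5-fold between the epithelial ranges of the knockouts. There it was 1.53-fold (1.37 to 1.71) higher in C1-sgKMT2D (2.62% of genes higher, 13.8% lower). These ratios between lines were not matched on cycle bins. PHF19 within C1-sgEED was at 134 CPM in the mesenchymal and 77.5 CPM in the epithelial range. The ratio was 1.73 (1.53 to 1.96), within cycle bins 1.48, and 1.45 to 1.76 over alternative settings of the processing. From the lowest to the highest bin this ratio was 0.687 (0.401 to 1.12), 1.10 (0.694 to 1.72), 1.90 (1.47 to 2.46) and 1.53 (1.28 to 1.83), so only the upper bins had intervals above 1. Within C1-sgKMT2D the ranges were level at 122 and 118 CPM.

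MTF2 (ENSG00000143033; chromosome 1, 93079235 to 93139081, plus strand) was at 32.4 CPM (29 to 36.2), 38.1 CPM (34.4 to 42.1) and 42.6 CPM (39.3 to 46.2) in the control line, C1-sgEED and C1-sgKMT2D. Only the first and last of these intervals do not overlap. Unlike PHF19, it was low in the mesenchymal range of C1-sgEED, at 27.8 CPM against 45.5 CPM, a ratio of 0.610 (0.485 to 0.763). Over alternative settings of the processing this ratio ran from 0.573 to 0.741, so it did not always pass 1.5-fold. In C1-sgKMT2D MTF2 was at 37.4 and 45.5 CPM. PHF19 per MTF2 was accordingly 4.83 (3.93 to 5.97) in mesenchymal-range and 1.70 (1.46 to 1.98) in epithelial-range cells of C1-sgEED.

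JARID2 and AEBP2 belong to the other form of the complex, and JARID2 was the subunit lowest in C1-sgEED relative to the control. JARID2 (ENSG00000008083; chromosome 6, 15246296 to 15522040, plus strand) was at 47.1 CPM (43.0 to 51.6) in the control line, 37.5 CPM (34.4 to 40.9) in C1-sgKMT2D and 27.5 CPM (24.4 to 30.9) in C1-sgEED. No intervals overlap, and C1-sgEED was 1.71-fold lower (1.48 to 1.99) than the control, or 1.41-fold lower (1.20 to 1.64) within cycle bins. It was lower in the mesenchymal than in the epithelial range of both knockouts: 14.9 against 36.2 CPM in C1-sgEED, a ratio of 0.411 (0.304 to 0.550), and 26.5 against 43.2 CPM in C1-sgKMT2D, a ratio of 0.613 (0.497 to 0.753). Within cycle bins these ratios were 0.472 and 0.615. The antisense gene JARID2-AS1 overlaps it, and the strand setting of the counting is not stated.

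JARID2, like EZH1, was lower in the upper cycle bins. It was at 55.3, 56.4, 29.8 and 31.5 CPM in the control line and at 45.8, 30.6, 24.2 and 18.6 CPM in C1-sgEED. In C1-sgKMT2D it was nearly level, at 40.3, 38.0, 40.3 and 31.7 CPM. AEBP2 (ENSG00000139154; chromosome 12, 19404045 to 19720801, plus strand) was at 12.4, 9.75 and 10.0 CPM in the control line, C1-sgEED and C1-sgKMT2D, with overlapping intervals, and its ranges did not differ beyond counting error in either knockout. Within cycle bins it was at 0.731 (0.552 to 0.967) and 0.776 (0.607 to 0.994) of the control in C1-sgEED and C1-sgKMT2D.

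**Figure D5:**
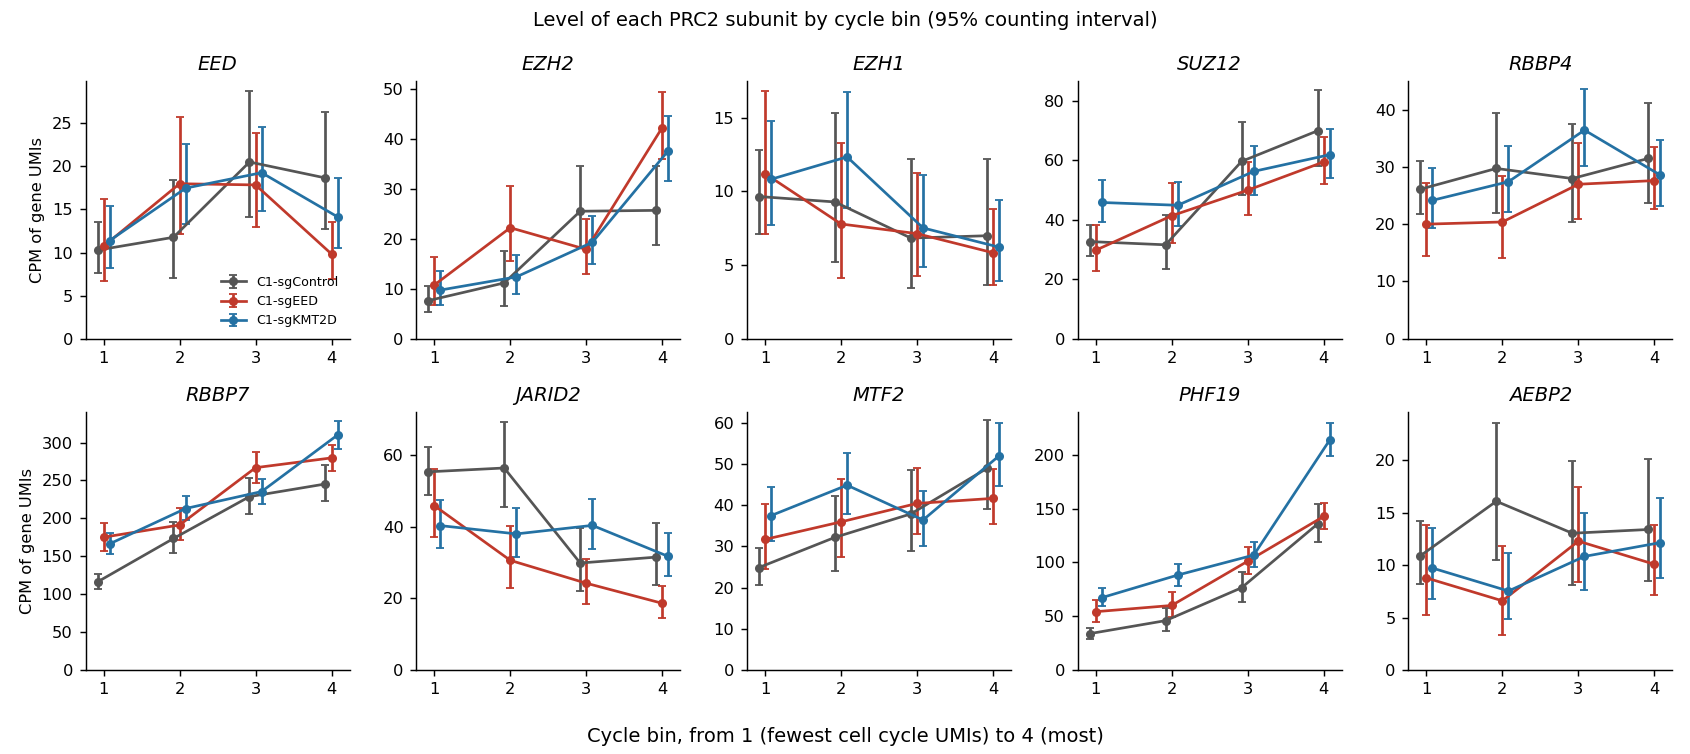
CPM of gene UMIs (y axis, from 0) of each PRC2 subunit in the 4 cycle bins (x axis) of the control line (C1-sgControl) and both knockouts, with 95% counting intervals. EZH2, SUZ12, RBBP7 and PHF19 are higher in bin 4 than in bin 1 in each line, EZH1 is lower, and JARID2 runs from 45.8 to 18.6 CPM in C1-sgEED.

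Counted at 1.5-fold, 6 subunits were higher in the highest than in the lowest cycle bin of the control line (EED, EZH2, SUZ12, RBBP7, MTF2 and PHF19; 22.1% of genes) and 1 lower (JARID2; 8.42% of genes). In C1-sgEED 4 were higher (EZH2, SUZ12, RBBP7 and PHF19; 19.3% of genes) and 2 lower (EZH1 and JARID2; 11.9% of genes). In C1-sgKMT2D 3 were higher (EZH2, RBBP7 and PHF19; 19% of genes) and 1 lower (EZH1; 7.19% of genes). The median log2 ratio of the subunits was 0.92, 0.43 and 0.38 in the control line, C1-sgEED and C1-sgKMT2D, against 0.21, 0.12 and 0.18 over all genes. For EED the ratio in the control line was 1.82 (1.13 to 2.89) with cells thinned to 2000 UMIs and 1.09 with cells of at least 5000 UMIs thinned to 5000, which changes the cells and the depth together.

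Over 12 pools, the 4 cycle bins of each of the 3 lines, Pearson's r with the summed level of the cycle genes was 0.93 for EZH2, 0.91 for PHF19, 0.90 for RBBP7, 0.87 for SUZ12 and 0.80 for MTF2. It was 0.50 for RBBP4, 0.34 for AEBP2, 0.32 for EED, -0.74 for JARID2 and -0.85 for EZH1. The pools share 1 library and were made by cycle level, so these values only describe. Similar genes were then sought, leaving out the cycle genes themselves and genes under a mean of 10 CPM over the pools. Among the 7249 genes searched, those most like EZH2 were LEO1 (r of 0.96), HNRNPD (0.95), DNAJC19 (0.95), DTYMK (0.94) and TEX30 (0.94). Those most like EED were less like it: ASAP1 (0.84), RABEPK (0.84), KTI12 (0.83), KLHL23 (0.81) and REV1 (0.80).

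Because several subunits moved with the cycle, their promoter windows were searched for words of the E2F type, the binding motif of the factors that drive S-phase genes. The words were TTTCCCGC, TTTGGCGC, TTTCGCGC and TTTGCCGC on both strands, in windows from 250 bases before to 50 after each RefSeq start (GRCh38.p14). All 10 subunits have such windows, 15 in all, and 6 subunits had a word in 1 of them. A gene was counted once however many words it held, and a word was found for 3.99% of 27305 genes and in 3.31% of 35116 windows. These shares were not limited to the genes tested for expression above, so they are no matched background for the subunits. The 30 bases around each word, in the direction of the gene with the word in capitals, show how the match differs between subunits:

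EZH2 (chr7:148884272-148884301, minus strand): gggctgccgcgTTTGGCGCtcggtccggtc

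EZH1 (chr17:42745137-42745166, minus strand): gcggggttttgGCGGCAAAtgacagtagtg

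SUZ12 (chr17:31936807-31936836, plus strand): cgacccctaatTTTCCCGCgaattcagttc

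MTF2 (chr1:93079277-93079306, plus strand): accggcagtccGCGGGAAAccaaaatggcg

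PHF19 (chr9:120877322-120877351, minus strand): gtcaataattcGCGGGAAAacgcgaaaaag

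AEBP2 (chr12:19440438-19440467, plus strand): caaggcgacgtTTTGCCGCgatccccctgc

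Distances are from the RefSeq start of the window. For PHF19 this is 1 of 2 starts searched and for AEBP2 the only one, and both lie far inside the gene span given above. The word lies 1 base downstream of the start in EZH2 and 5 bases downstream in MTF2. It lies 115, 189, 152 and 150 bases upstream in EZH1, SUZ12, PHF19 and AEBP2. The match did not divide the subunits by their levels. EZH2, SUZ12, MTF2 and PHF19 had a word and r of 0.80 to 0.93 with the cycle genes. RBBP7 had none at r of 0.90, while AEBP2 and EZH1 had one at r of 0.34 and -0.85. A match describes these letters only and is not evidence of a bound site.

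Other Polycomb genes were read from lists chosen for the pathway, at the same 1.5-fold and beside the same shares of all genes. Of 27 subunits of PRC1, the complex that ubiquitinates histone H2A and binds the PRC2 mark, 22 were measured. In C1-sgEED 6 were higher than in the control (11.6% of genes). These were BMI1 at 2.29-fold (1.75 to 3.02), PCGF6 at 2.17-fold, PCGF5 at 2.07-fold, CBX6, CBX8 and L3MBTL2. PHC3 and AUTS2 were lower, at ratios of 0.496 and 0.616 (8.35% of genes). In C1-sgKMT2D BMI1 (1.94-fold) and PCGF6 (2.42-fold) were higher (8.08% of genes) and AUTS2 lower (14.6% of genes). The median log2 ratio of the 22 was 0.31 in C1-sgEED, beside 0.08 over all genes, and 0.02 in C1-sgKMT2D, beside -0.03. None of 9 measured members of the H2A deubiquitinase complex and neither of the 2 measured further PRC2 cofactors was past 1.5-fold in either whole knockout line against the control. Between the ranges of C1-sgKMT2D, 2 of the 9 were lower in the mesenchymal range (12.3% of genes) and none was higher.

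Of the enzymes that remove the PRC2 mark, KDM6B was at 20.2 CPM in the control line, 21.6 CPM in C1-sgKMT2D and 12.7 CPM in C1-sgEED. In C1-sgEED it was at 4.46 CPM in the mesenchymal and 18.1 CPM in the epithelial range, a ratio of 0.247 (0.141 to 0.409), while in C1-sgKMT2D the ratio was 1.34 (1.06 to 1.70). KDM6A was at 5.54 CPM in the control line, 4.80 CPM in C1-sgKMT2D and 5.17 CPM in C1-sgEED. Its ratio of mesenchymal to epithelial range was 0.635 (0.322 to 1.19) in C1-sgEED, past 1.5-fold with an interval that includes 1, and 0.928 (0.524 to 1.59) in C1-sgKMT2D. Of 12 E2F and pocket proteins 10 were measured. E2F1, an activator of S-phase genes, was 2.62-fold higher in C1-sgEED (2.02 to 3.44) and 1.80-fold in C1-sgKMT2D. E2F7 was 1.69-fold higher and E2F3 lower in C1-sgEED (11.6% of genes higher, 8.35% lower). In C1-sgKMT2D E2F5 and TFDP2 were also higher and E2F4 and RBL2 lower (8.08% of genes higher, 14.6% lower). Of 19 measured partners of RBBP4 and RBBP7 in other complexes, SAP30, a subunit of a histone deacetylase complex, was higher in both knockouts. It was 1.72-fold higher in C1-sgEED (11.6% of genes) and 2.25-fold in C1-sgKMT2D (8.08% of genes). MTA2, MBD2 and SIN3B were lower in C1-sgKMT2D (14.6% of genes). The cycle shares given above differ between the lines, and their part in these ratios was not tested.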

How the data were processed

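Gene expression and hashtag UMIs were read from a gene expression library and a hashtag library of 1 pool of cells, held in 1 matrix. The deposited values are UMI counts, whole numbers per gene and barcode, which per the file headers come from the authors' run of Cell Ranger 3.0.2. The build was GRCh38, per the submitters' processing notes, and no source used here gives the annotation version. Of 10336 barcodes, 9193 had at least 500 genes and at most 20% mitochondrial UMIs. For each hashtag, a mixture of 2 normal components was fitted to the log10 hashtag counts, and barcodes more likely in the upper component were positive. The 827 positive for several (9.00%) and the 26 positive for none were left out, and doublets within a line were left in. Hashtag 2 has no line in the labels and enters no comparison. Scrublet (scanpy 1.11.5) marked 0 barcodes at its own threshold. The 10% of barcodes with the highest scores were therefore removed as an alternative, chosen after that was seen. Medians per cell were 5672.5 (C1-sgControl), 3915 (C1-sgEED) and 5526 UMIs (C1-sgKMT2D).

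UMIs were summed per line, cycle bin or range. Sums have exact Poisson, ratios exact conditional binomial and Mantel-Haenszel ratios log-normal intervals at 95%. Counts were simulated with Poisson error only, for C1-sgEED over control, C1-sgKMT2D over control and C1-sgKMT2D over C1-sgEED. In that order, 95.5%, 95.2% and 95.1% of ratio intervals over 9354, 9354 and 9654 genes covered the true value. The simulation held no spread between cells or clones, so it checks the calculation and not whether the intervals suit these data. No p-value was computed. Bins and the mesenchymal share used 84, 167 and 114 fewer cells, those under 2000 UMIs, in C1-sgControl, C1-sgEED and C1-sgKMT2D. All 10 subunits were described. Other list genes were named where at least 1.5-fold from the control, with KDM6A and KDM6B, and so were the 5 genes most like EZH2 and EED. The subunits and lists were chosen with earlier results of these data known. Neighbours of EED, the lean to G1/S or G2/M, the intervals of the mesenchymal share, the ranges across lines and the promoter words were added after values were seen. The alternatives changed the filters, hashtag calls, totals, fold, low-value filter, pseudocount, thinning, bins and bound.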

Additional observations from a re-analysis of the deposited data

Results flagged for a closer look

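For 2 subunits the ratio of mesenchymal to epithelial range pointed in opposite directions in the knockouts. EED had a ratio of 0.132 (0.0644 to 0.245) in C1-sgEED and 1.12 (0.839 to 1.5) in C1-sgKMT2D. EZH1 had a ratio of 0.684 (0.403 to 1.13) in C1-sgEED and 1.63 (1.13 to 2.35) in C1-sgKMT2D. With 1 sample per line the difference was not tested. The interval of EED in C1-sgKMT2D and that of EZH1 in C1-sgEED include 1.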

How the results depend on the processing

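Counts of subunits past the fold depended on the fold chosen. Shares of all genes are given above at 1.5-fold only. Counts at other folds therefore show how the calls depend on the fold and are no result about the subunits. With the fold at 5 to 4 in place of 3 to 2, the count was 5 in place of 3 for C1-sgEED over control, 5 in place of 1 for C1-sgKMT2D over control, 2 in place of 0 for C1-sgKMT2D over C1-sgEED, 8 in place of 4 for the cycle bins of C1-sgKMT2D and 4 in place of 2 for its ranges. At 2-fold these counts were 0 for C1-sgEED over control, 0 for C1-sgKMT2D over control, 2 for the cycle bins of C1-sgKMT2D and 0 for its ranges, and 4, 3 and 3 for the cycle bins of C1-sgControl, those of C1-sgEED and the ranges of C1-sgEED. The ranges of C1-sgEED gave 3 in place of 6 with the bound at 0.8, which by construction puts intermediate cells into the lower range. EED, EZH2 and JARID2 stayed past 1.5-fold there, and RBBP4, PHF19 and MTF2 did not. The ranges of C1-sgKMT2D gave 1 in place of 2 with a mean of at least 10 CPM, which drops EZH1. No result reversed. The other 114 values of these comparisons and 248 of 257 single ratios stayed within 1.5 times the main count or within the main interval. The ratio of EZH2 within cycle bins ranged from 1.28 to 1.44 for C1-sgEED over control and from 1.13 to 1.21 for C1-sgKMT2D over control. Removing barcodes by Scrublet score, added after seeing the data, moved no count. No paired analysis was possible because each line is 1 sample. Depth limits EED, EZH1 and AEBP2 most, at 78 to 214 UMIs per line.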

Other observations

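The 1934 cells with hashtag 2, which the labels tie to no line, held 11297540 UMIs. EED was at 8.94 CPM (7.28 to 10.9) there, EZH2 at 13.5 CPM (11.4 to 15.8), EZH1 at 5.31 CPM, SUZ12 at 48.4 CPM and RBBP4 at 20.7 CPM. RBBP7 was at 99.6 CPM (93.8 to 106), JARID2 at 27.3 CPM, MTF2 at 36.6 CPM (33.2 to 40.4), PHF19 at 93.5 CPM and AEBP2 at 10.6 CPM. Of its cells of at least 2000 UMIs, 849 of 1856 (45.7%) lay in the mesenchymal range. EED was at 12.8, 7.74 and 10.2 CPM in the 3 intervals of the mesenchymal share below the bound and at 7.82, 6.56 and 7.42 CPM in those above it, with overlapping intervals. EZH2 was at 7.16 CPM in the lowest and 23.5 CPM in the highest cycle bin.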
